A study of Drosophila melanogaster with 15 samples.

Results

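Larval clock neurons of cyc0 mutants were compared with those of wild-type larvae in the early night. The comparison covered 6 of the 15 arrays of the study, the 3 arrays of cyc0 ventral lateral neurons (LNvs) at zeitgeber time (ZT) 15 and the 3 arrays of wild-type LNvs at the same time. It took every probe set other than controls with a log2 value of at least 4 on at least 3 of the 15 arrays, which left 5829 of 18769 probe sets, for 4721 named genes. The probe set for CG3337 lay just inside this limit, with a third-highest value of 4.001 over the arrays (mean 3.48 in cyc0 and 4.11 in wild type). The probe set for Rcd2 lay just outside it, with 3.9985 (3.30 and 2.79).

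The LNvs are the Pdf-expressing pacemaker neurons of the larval brain. All larvae were in the third instar (L3) and were kept at 25 °C in 12 h light and 12 h dark, so that ZT15 lay 3 h after lights-off. Wild-type LNvs came from yw, Pdf-Gal4; UAS-GFP larvae and the mutant LNvs from yw, Pdf-RFP, cyc0 larvae, and both groups therefore carried yw and a reporter driven by the Pdf promoter. Arrays of per0 LNvs at ZT15 (yw, per0; Pdf-RFP), of wild-type LNvs at ZT3 (genotype as at ZT15) and of elav-Gal4, UAS-GFP neurons at ZT15 are given beside them as reference values, with 3 arrays each. Because the wild type carried GFP and the mutants RFP, reporter and cyc genotype cannot be told apart between cyc0 and wild type. The labels name no lesion for the cyc0 allele and no common source strain. About 1000 cells, the 0.01% with the brightest RFP signal, were sorted per the labels' protocol, which names RFP for the GFP arrays too. Each array pools cells of several brains, and fewer cells with a transcript and less transcript per cell cannot be told apart.

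In the fly clock, the transcription factors Clock (CLK) and Cycle (CYC) bind DNA as a pair and switch on per, tim, vri, Pdp1 and cwo. The PER and TIM proteins then accumulate during the night and block CLK/CYC, while VRI and PDP1 act on the Clk gene and CWO represses genes that CLK/CYC activates. Loss of cyc removes the activating arm, and loss of per removes the repressing arm. In LNvs this loop sets daily rhythms of excitability, of axon structure and of signalling through the neuropeptide PDF.

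Values are deposited log2 GCRMA values, a background-corrected and normalised measure of hybridisation, and they compare 1 probe set across arrays, not different genes. The number of probe sets at or above log2 4 was between 3830 and 5110 on the 6 arrays, against 3520 to 5436 over all 15. Over the tested probe sets, the mean correlation of an array with the other arrays of its group was between 0.78 and 0.86 in cyc0 and between 0.79 and 0.82 in wild type. The lowest values in each group were those of cyc0 replicate 3 and wild-type replicate 1. The second cyc0 array correlated with the per0 arrays at 0.86 and with the other cyc0 arrays at 0.81. Wild-type replicate 1 likewise correlated with the per0 arrays at 0.81 and with the other wild-type arrays at 0.79. The mean correlation with the elav arrays was between 0.67 and 0.72 for the cyc0 arrays, between 0.64 and 0.65 for the wild-type ZT15 arrays and between 0.65 and 0.71 for the per0 arrays. The part of other neurons in the differences was not tested. Differences are cyc0 minus wild type on the log2 scale with the standard error (SE) of the limma fit, whose median was 0.66, and adjusted p-values are Benjamini-Hochberg values of limma. For a group with all 3 arrays below log2 4, the fold was computed against log2 4 and is written "at least". That limit is a working level chosen here, and the arrays give no measured detection limit.

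At an adjusted p under 0.05, 169 of the 5829 probe sets differed (2.9%), 89 higher in cyc0 (1.53%) and 80 lower (1.37%). The count ran from 62 (27 higher, 35 lower) without cyc0 replicate 1 to 258 (96 higher, 162 lower) without cyc0 replicate 2, and centring the arrays gave 109 higher and 156 lower. It was 95 without wild-type replicate 2 and 110 without cyc0 replicate 3. With only the 6 compared arrays in the fit 35 passed, and 23 of the 43 called genes named by rule missed the threshold, with adjusted p-values from 0.051 to 0.164. By gene, with the brightest probe set of each, 140 of 4721 passed (2.97%), 73 higher (1.55%) and 67 lower (1.42%). The 3 cyc0 arrays did not overlap with the 3 wild-type arrays for any of the 169 probe sets, nor for 23.7% of all tested probe sets. Called differences ran from 2.03 to 7.91 in size, with a median of 2.93. Among the called genes, 25 of those higher in cyc0 had all wild-type arrays below log2 4, and 23 of those lower had all cyc0 arrays below it. The median difference over all tested genes was 0.22, which is the level against which list medians are read. Of all tested genes, 57.5% had a positive and 41.9% a negative difference, and 19.1% had an unadjusted p under 0.05, and counts within lists are read against these shares. Counts of called genes within lists are read against the 1.55% higher and 1.42% lower by gene.

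Transcripts of the clock loop itself were lower in cyc0. Of the 5 CLK/CYC targets, tim, Pdp1, per and vri fell and cwo did not pass, which is 4 of 5 lower against 1.42% of all tested genes, with a list median of -3.95. Averaged over the 5 genes, the log2 level was 4.67, 5.44 and 5.56 on the cyc0 arrays and 8.91, 9.40 and 10.04 on the wild-type arrays. The arrays of the groups were far apart in this mean.

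The largest difference of the whole comparison was in tim, whose protein partners PER. The tim transcript read 2.88, 2.85 and 3.21 on the cyc0 arrays and 11.09, 10.84 and 10.75 on the wild-type arrays. All cyc0 arrays were near the bottom of the scale and the wild-type arrays were tightly grouped near its top. The difference was -7.91 (SE 0.55, adjusted p = 2.25e-07), at least 119-fold, and a second probe set of tim differed by -4.47 (adjusted p = 0.00149). The cyc0 mean of 2.98 lay beside that of wild-type LNvs at ZT3 (2.97), the morning low point of tim, whereas per0 LNvs averaged 10.89.

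Pdp1 encodes a leucine-zipper activator of Clk. Its transcript read 4.37, 5.60 and 6.69 in cyc0 and 10.92, 10.21 and 10.29 in wild type. The groups did not overlap, and the cyc0 arrays were the more widely spread. Pdp1 differed by -4.92 (SE 0.69, adjusted p = 0.000888), a 30.2-fold lower value.

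For per, the partner of tim, the cyc0 arrays gave 2.92, 3.39 and 3.55 and the wild-type arrays 6.11, 6.92 and 8.69. Every cyc0 array was below the working level, and the wild-type arrays varied among themselves. The difference of per was -3.95 (SE 0.70, adjusted p = 0.00431), at least 9.45-fold, with an adjusted p of 0.0635 in the fit to the 6 compared arrays.

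The bZIP repressor gene vri remained well above the working level in cyc0, at 8.34, 8.48 and 9.66, against 11.69, 11.17 and 11.32 in wild type. The groups were separate, with the third cyc0 array closest to wild type. The difference of vri was -2.57 (SE 0.55, adjusted p = 0.0139), a 5.94-fold lower value. It had an adjusted p of 0.0867 without cyc0 replicate 1 and 0.0511 after quantile normalization. For cwo, a basic helix-loop-helix repressor gene, the cyc0 arrays read 4.86, 6.86 and 4.70 and the wild-type arrays 4.75, 7.85 and 9.14. These overlapped, and neither this probe set (-1.77, SE 0.94, adjusted p = 0.316) nor a second one (-3.0, adjusted p = 0.134) passed. With array weights, where 812 probe sets passed, cwo had an adjusted p of 0.0327 and cyc one of 0.0137.

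**Figure D1:**
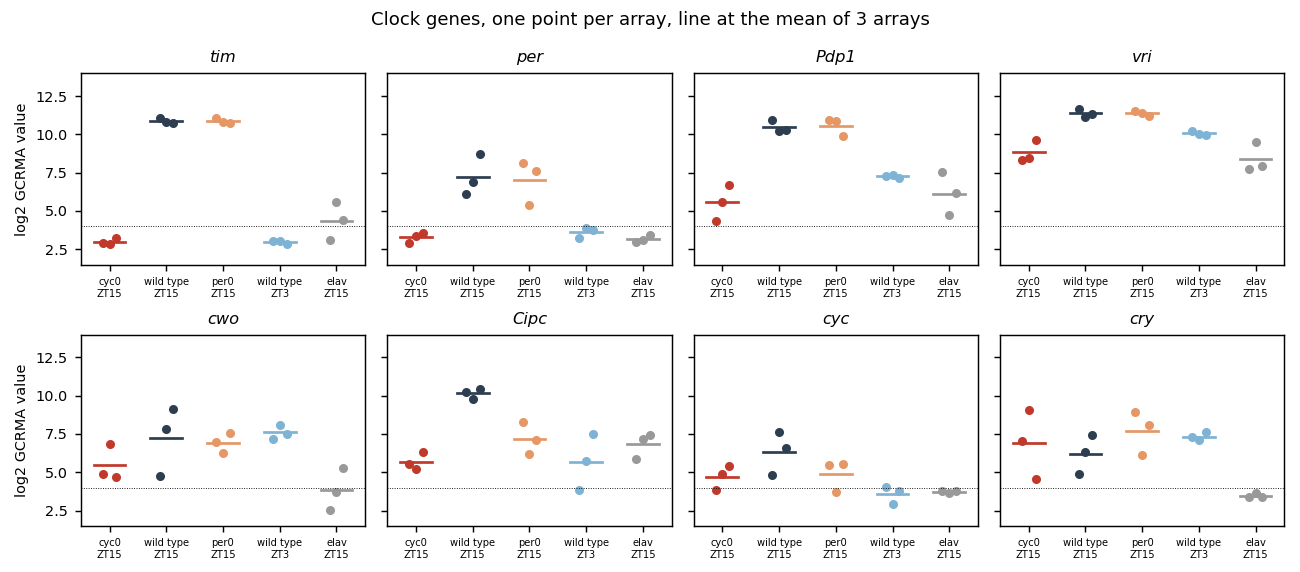
Log2 GCRMA values (vertical axis) of 8 clock genes, 1 point per array and a line at the mean of 3 arrays, for cyc0, wild-type and per0 LNvs at ZT15, wild-type LNvs at ZT3 and elav neurons at ZT15, with a dotted line at log2 4. For tim, Pdp1, per, vri and Cipc the cyc0 points lie below all wild-type ZT15 points, while for cwo, cyc and cry they overlap.

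Cipc, the fly counterpart of a mammalian inhibitor of CLOCK, was also lower in cyc0. It read 5.54, 5.23 and 6.31 in cyc0 and 10.27, 9.80 and 10.46 in wild type, with both groups tight and apart. The difference was -4.48 (SE 0.77, adjusted p = 0.00368), 22.4-fold lower. The plot of clock genes by array shows Cipc beside the CLK/CYC targets, with a per0 mean of 7.20 between the groups.

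Cipc and nej were the only called genes among 13 tested factors of the clock outside the 5 targets, 1 lower and 1 higher, and the list median was -0.17. The gene nej encodes the histone acetyltransferase CBP, a transcriptional coactivator known to bind CLK. It read 9.34, 8.96 and 9.33 in cyc0 and 6.68, 6.96 and 5.97 in wild type, without overlap, a difference of 2.67 (SE 0.47, adjusted p = 0.00406). A second, dim probe set of nej differed by -0.44 (adjusted p = 0.713). The per0 mean of nej was 9.17, close to that of cyc0.

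The mutated gene cyc read 3.84, 4.86 and 5.42 in cyc0 and 4.82, 7.63 and 6.61 in wild type. The arrays overlapped, and the difference of -1.65 (SE 0.70) did not pass (adjusted p = 0.207). Since the lesion is not named, the level of cyc transcript is no check of the label. The blue-light photoreceptor gene cry varied widely in cyc0, at 7.05, 9.08 and 4.53 against 4.87, 6.31 and 7.45 in wild type (difference 0.67, SE 0.93, adjusted p = 0.741). Clk was too dim to test, with means of 3.14 and 2.92. The kinase genes dco (-0.46) and CkIalpha (0.04) and the ubiquitin ligase gene slmb (0.65), which act on PER, did not pass.

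Pdf transcript marked both groups as LNvs. It read 12.93, 12.80 and 12.37 in cyc0 and 12.61, 12.41 and 12.48 in wild type, overlapping (difference 0.20, SE 0.48, adjusted p = 0.854), against a mean of 3.70 in elav neurons. The Pdf promoter also drove the reporters used in the sort, so the level is not independent of the sort. Among the other genes associated with LNvs, the transcription factor genes Fer2 (0.11) and Hr51 (0.50) did not pass and Pura fell. The receptor gene Pdfr was not tested, with a mean of 2.35 in cyc0 and 4.19 in wild type. The pan-neuronal gene elav read 7.66, 8.27 and 7.31 in cyc0 and 5.05, 5.28 and 6.40 in wild type and just missed the threshold (difference 2.17, SE 0.58, adjusted p = 0.0524). It passed in 7 alternative settings, among them centring of the arrays (0.0304) and quantile normalization (0.0182). The mean of elav was 7.74 in cyc0, 7.76 in wild type at ZT3, 5.73 in per0 and 8.75 in elav neurons. No gene passed among 16 tested pan-neuronal and synaptic vesicle genes, with a median of 0.24 and 2 at an unadjusted limma p under 0.05.

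Pura acts in the daily remodelling of LNv axons. Its values were 4.15, 5.34 and 6.19 in cyc0 and 10.07, 9.98 and 9.78 in wild type. The cyc0 arrays were spread but all far below the wild-type arrays, which were nearly identical. The difference was -4.72 (SE 0.54, adjusted p = 0.000104), 26.3-fold lower. The per0 mean was 9.33, and that of wild type at ZT3 was 5.73.

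Neuropeptide genes changed in both directions. Of 24 listed genes other than Pdf, 21 were on the array and 7 were bright enough to test, and Dh31 was higher while sNPF and Ilp7 were lower in cyc0 (list median 0.16). The shares over all tested genes were 1.55% higher and 1.42% lower. Dh31 encodes a calcitonin-like diuretic hormone that acts in fly sleep and temperature behaviour. It read 7.62, 8.86 and 7.06 in cyc0 and 2.31, 2.45 and 2.55 in wild type. The wild-type arrays were at the bottom of the scale and the groups did not approach each other, a difference of 5.41 (SE 0.67, adjusted p = 0.000257), at least 14.4-fold. Dh31 averaged 3.04 in per0 and 6.85 in wild-type LNvs at ZT3.

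The short neuropeptide F precursor gene sNPF read 3.80, 3.73 and 3.20 in cyc0 and 8.06, 6.01 and 7.02 in wild type. All cyc0 arrays were below the working level, and the difference was -3.45 (SE 0.81, adjusted p = 0.0251), at least 8.17-fold. In per0 LNvs sNPF averaged 7.74, and at ZT3 in wild type 2.98. The insulin-like peptide gene Ilp7 read 2.85, 6.61 and 2.70 in cyc0 and 8.95, 7.93 and 6.99 in wild type. The second cyc0 array of Ilp7 lay close to the lowest wild-type array, and the difference was -3.90 (SE 0.87, adjusted p = 0.0181). With 1 of the 6 arrays left out, the adjusted p reached 0.0856 for sNPF and 0.119 for Ilp7. The peptide genes Nplp1 (0.71) and Proc (-0.89) did not pass.

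Of 10 tested genes for peptide processing and dense-core vesicles, amon alone passed, and the list median was 0.77. It encodes the prohormone convertase that cuts peptide precursors. Its values were 11.74, 11.79 and 11.36 in cyc0 and 8.69, 6.42 and 7.82 in wild type, separate and with the wild-type arrays the more variable. The difference was 3.99 (SE 0.90, adjusted p = 0.0192), 15.9-fold higher, and with 1 array left out the adjusted p reached 0.0989. Later steps of peptide maturation did not pass, with Phm at 0.63 and Pal2 at -0.11.

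TkR86C, a receptor gene of the tachykinin family, was the only called gene among 7 tested neuropeptide receptors (median -0.30). It read 7.78, 8.87 and 8.28 in cyc0 and 3.34, 3.18 and 3.31 in wild type. The wild-type arrays were at the bottom of the scale and the groups were far apart, a difference of 5.04 (SE 0.56, adjusted p = 8.54e-05), at least 19.9-fold. The means in per0 (3.22), in wild type at ZT3 (3.57) and in elav neurons (3.67) were all below log2 4, and cyc0 differed from per0 by 5.09 (adjusted p = 7.22e-05). TkR86C entered the tested set through the cyc0 arrays, since only 2 of the others reached log2 4, so that its selection favoured a difference. With no filter its adjusted p was 0.00129.

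Among channels, Irk1 was lower in cyc0. The gene encodes an inwardly rectifying potassium channel, a class that lowers excitability. It read 3.84, 2.63 and 2.64 in cyc0 and 9.50, 7.59 and 6.58 in wild type. Every cyc0 array was below the working level and the wild-type arrays ranged widely. The difference was -4.85 (SE 0.65, adjusted p = 0.000533), at least 14.8-fold, and cyc0 differed from per0 (mean 6.40) by -3.36 (adjusted p = 0.0163). In wild type at ZT3 Irk1 averaged 3.76. The adjusted p of Irk1 against wild type was 0.0539 in the fit to the 6 compared arrays. No other gene of 9 tested potassium channels passed (list median 0.80), with Sh at 0.89 and SK at -0.27, and Shaw was too dim to test.

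None of 12 tested sodium, calcium and cation channel genes passed in limma (median 0.21, 3 at an unadjusted p under 0.05). The subunit genes with the smallest p were unc80, of the NALCN-type leak channel complex (-1.45, adjusted p = 0.118), and tipE, an accessory subunit of the sodium channel (1.51, adjusted p = 0.236). None of 15 tested neurotransmitter receptor genes passed either (median -0.05, 6 at an unadjusted p under 0.05, against 19.1% of all tested genes), with the GABA receptor subunit gene Lcch3 at 2.39 (adjusted p = 0.0605) and the muscarinic receptor gene mAChR-B at -2.15 (adjusted p = 0.13). They passed in 4 and 2 alternative settings.

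Tbh encodes tyramine beta-hydroxylase, the last enzyme of octopamine synthesis. It was the only called gene of 6 tested markers of fast transmitters and monoamines (median -0.37). Its values were 4.06, 4.43 and 4.23 in cyc0 and 7.97, 9.99 and 10.49 in wild type. The cyc0 arrays were tight and just above the working level, and the difference was -5.24 (SE 0.76, adjusted p = 0.00107), 37.9-fold lower. The per0 arrays of Tbh were spread from 4.23 to 7.70.

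cAMP signalling, through which the PDF receptor acts, held 1 called gene in each direction among 14 tested (median -0.51). Of all tested genes, 1.55% were called higher and 1.42% lower. Pka-C3, a gene for a catalytic subunit of protein kinase A, read 3.44, 2.64 and 2.57 in cyc0 and 7.09, 6.87 and 7.07 in wild type. The groups were tight and apart, a difference of -4.13 (SE 0.64, adjusted p = 0.00156), at least 8.05-fold. Pka-R1, a gene for a regulatory subunit, read 6.38, 7.16 and 6.67 against 3.76, 3.95 and 4.75. Its difference was 2.58 (SE 0.63, adjusted p = 0.0311), and the adjusted p reached 0.101 with 1 array left out. The adenylyl cyclase gene Ac13E (-2.76, adjusted p = 0.0566) and the phosphodiesterase genes dnc (2.14, adjusted p = 0.0876) and Pde6 (-2.07, adjusted p = 0.0796) did not pass.

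**Figure D2:**
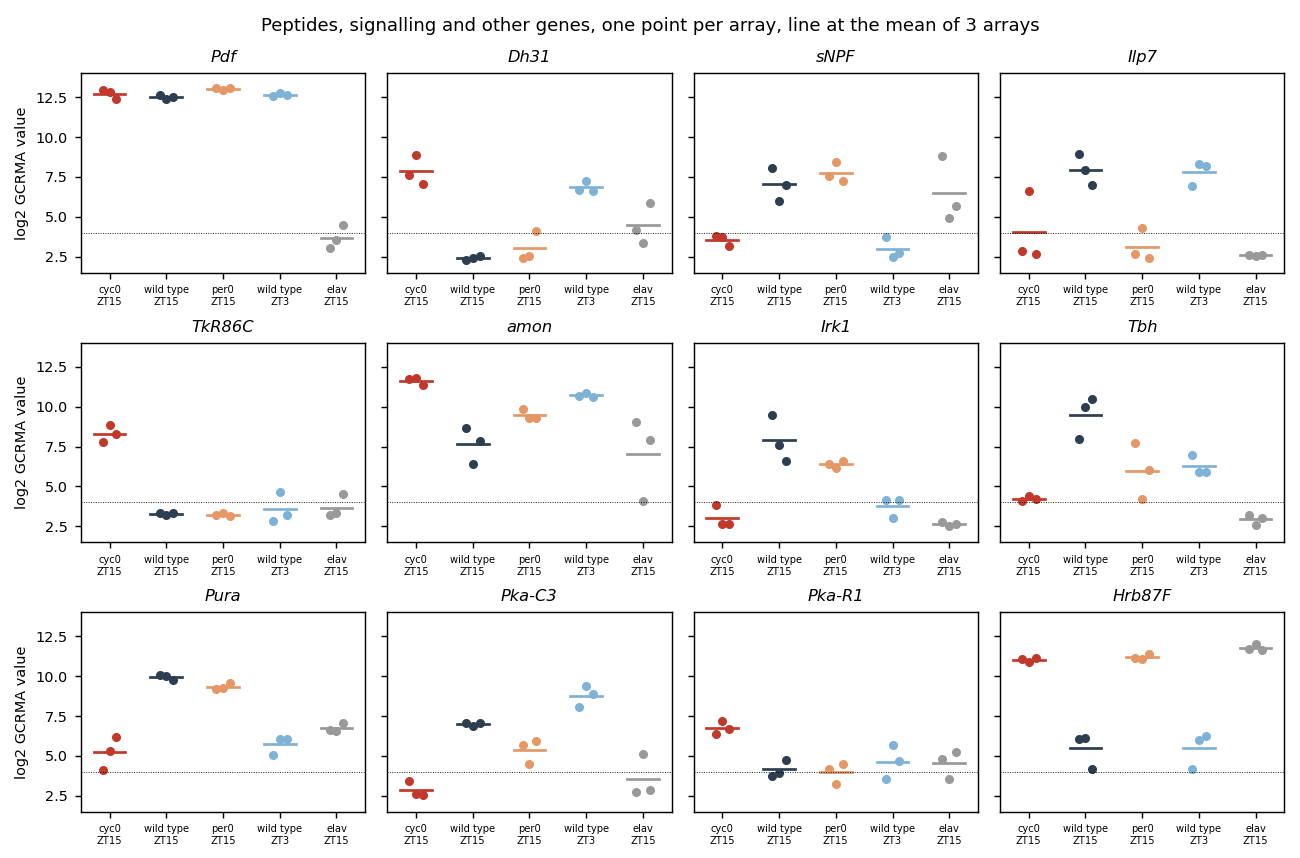
Log2 GCRMA values (vertical axis) of 12 peptide, signalling and other genes, 1 point per array and a line at the mean of 3 arrays, for the same 5 groups, with a dotted line at log2 4. Pdf is high in all 4 LNv groups, Dh31, TkR86C, amon and Pka-R1 are higher in cyc0 than in wild type at ZT15, and sNPF, Ilp7, Irk1, Tbh, Pura and Pka-C3 are lower.

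The list of adhesion and surface genes had the lowest median after the clock targets and the cytoplasmic ribosomal proteins. Its members were chosen with earlier results of these data known, so the median describes this list, not cell-surface genes at large. Of 27 tested adhesion and surface genes, 19 had a negative difference, the median was -1.05, and 3 fell (dpr9, Con and dpr8) while 1 rose (DIP-gamma). Of all tested genes, 41.9% were negative, 1.42% were called lower and 1.55% higher. The dpr and DIP genes encode immunoglobulin-domain proteins that bind each other across cell contacts. DIP-gamma read 7.33, 7.23 and 6.84 in cyc0 and 3.22, 4.47 and 2.53 in wild type, without overlap (difference 3.73, SE 0.56, adjusted p = 0.00127). It averaged 7.23 in wild type at ZT3 and 3.70 in per0.

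In the opposite direction, dpr9 read 5.09, 5.26 and 4.89 in cyc0 and 8.47, 10.64 and 9.87 in wild type (difference -4.58, SE 0.78, adjusted p = 0.00347). For dpr8 the arrays gave 3.58, 5.36 and 2.48 against 6.69, 7.38 and 7.53 (difference -3.39, SE 0.70, adjusted p = 0.0122, and up to 0.0691 with 1 array left out). The leucine-rich-repeat adhesion gene Con read 2.31, 2.41 and 2.43 in cyc0 and 4.73, 7.21 and 6.80 in wild type, a difference of -3.86 (SE 0.62, adjusted p = 0.00184), at least 4.74-fold. In each of these 3 genes the groups were separate and the cyc0 arrays lay lower. Con was equally low in per0, with a mean of 2.4.

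The 30 genes with the largest called differences, 15 in each direction, held several others of known function. Hrb87F encodes a nuclear RNA-binding protein of the hnRNP A family. It read 11.09, 10.91 and 11.11 in cyc0 and 6.09, 6.15 and 4.19 in wild type, far apart (difference 5.56, SE 0.61, adjusted p = 8.54e-05), 47.2-fold higher. It was the only called gene of 9 tested hnRNP genes, whose median was 0.52.

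The largest positive difference was that of HisT, at 9.25, 8.48 and 8.62 in cyc0 against 4.16, 2.51 and 2.51 in wild type (5.72, SE 1.20, adjusted p = 0.013). Its adjusted p reached 0.0756 with 1 array left out. The receptor tyrosine phosphatase gene Ptp99A (4.33, adjusted p = 0.00426), the synaptic scaffold gene Liprin-gamma (4.33, adjusted p = 0.00957) and the p53-pathway regulator gene ASPP (4.19, adjusted p = 0.00941) were higher too, as were the methylcytosine dioxygenase-family gene Tet (3.82, adjusted p = 0.00184) and the zinc-finger gene Cf2 (3.77, adjusted p = 0.0239). Of these, Ptp99A and Tet passed with each of the 6 arrays left out in turn, whereas Liprin-gamma, ASPP and Cf2 did not, with adjusted p-values of up to 0.0584, 0.0607 and 0.104. CG32683 (4.06), CG32204 (3.82) and CG7985 (3.45) completed the higher genes together with the cytochrome P450 gene Cyp4p2 (3.98). CG32683, like TkR86C, entered the tested set through its cyc0 arrays, with 2 others at log2 4 or above, and its adjusted p was 0.00634 with no filter. CG32204 had an adjusted p of 0.0544 without cyc0 replicate 3, and in the fit to the 6 compared arrays the adjusted p was 0.0585 for CG32204, 0.0925 for CG7985 and 0.0687 for Ptp99A. In elav neurons, the means were 11.78 for Hrb87F, 9.59 for Liprin-gamma, 8.16 for CG32204 and 7.67 for Cf2, all above those in cyc0, whereas those of HisT (4.88), ASPP (4.80) and Cyp4p2 (3.17) were below.

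Of the lower genes, ana encodes a secreted glycoprotein known as a regulator of neuroblast proliferation. It read 3.01, 3.89 and 3.42 in cyc0 and 8.99, 7.79 and 9.36 in wild type, a difference of -5.28 (SE 0.76, adjusted p = 0.00104), at least 26.3-fold. The groups were more than 3 log2 units apart at their nearest arrays. CG13054 (-4.98, at least 10.7-fold), CG9344 (-4.89), CG18265 (-4.0, at least 9.20-fold) and hwt (-4.0) were lower as well. The mitochondrial ribosomal protein gene mRpS25 differed by -4.84 (adjusted p = 0.00737), with cyc0 arrays of 2.63, 7.08 and 3.75, and had an adjusted p of 0.0607 without cyc0 replicate 1.

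**Figure D3:**
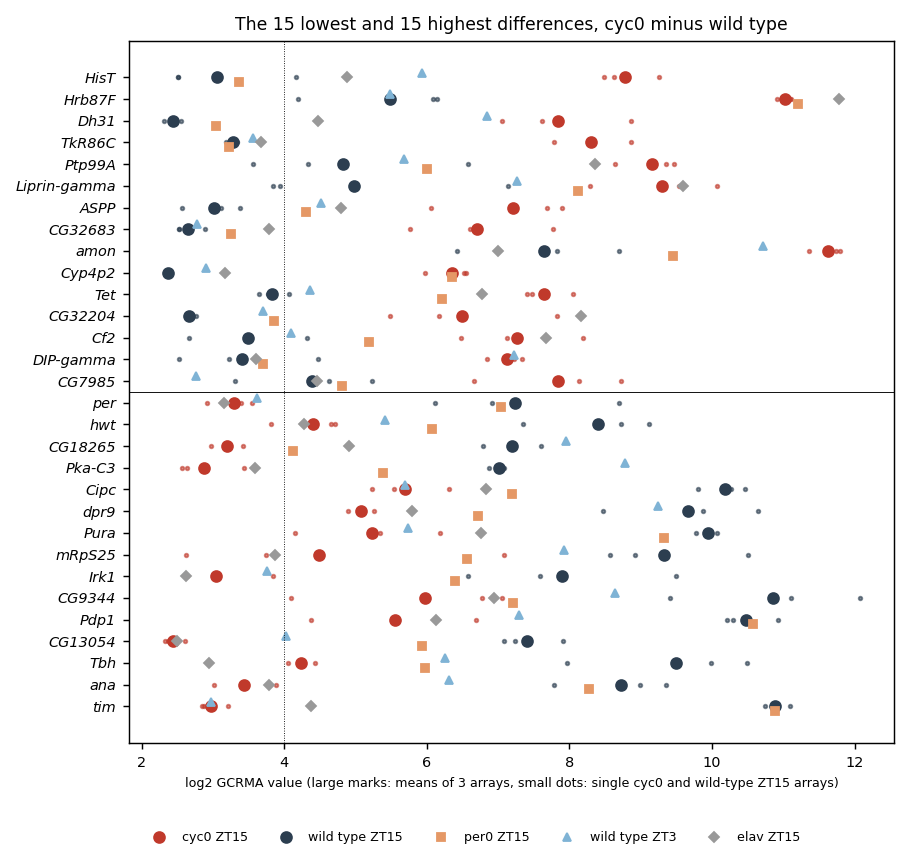
Log2 GCRMA values (horizontal axis) of the 15 genes with the highest and the 15 with the lowest called difference, with large marks for means of 3 arrays in 5 groups, small dots for single cyc0 and wild-type ZT15 arrays and a dotted line at log2 4. Between cyc0 and wild type the small dots do not overlap for any of the 30 genes, while the per0 means lie near cyc0 for Hrb87F and Cyp4p2 and near wild type for tim, Pdp1, Dh31 and TkR86C.

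The per0 arrays carry the Pdf-RFP reporter of the cyc0 arrays and have a clock arrested in the other arm, so their values were set beside those of the called genes. The comparisons of per0 with wild type and of cyc0 with per0 share arrays with the main one. For the called clock-loop genes tim, Pdp1, per and vri, per0 LNvs were close to wild type. The uncalled cwo differed between per0 and wild type by -0.30 (adjusted p = 0.901) in 1 probe set and -2.88 (adjusted p = 0.193) in a second. Per0 minus wild type was 0.10 for Pdp1 (adjusted p = 0.955) and -0.20 for per (adjusted p = 0.913), and cyc0 minus per0 was -7.91 for tim (adjusted p = 2.25e-07), -5.02 for Pdp1 (adjusted p = 0.000761), -3.75 for per (adjusted p = 0.0134) and -2.57 for vri (adjusted p = 0.0307). For Cipc, cyc0 minus per0 was -1.51 (adjusted p = 0.545) and per0 minus wild type -2.97 (adjusted p = 0.0686).

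Pura differed between cyc0 and per0 by -4.11 (adjusted p = 0.000723), sNPF by -4.17 (adjusted p = 0.0176), ana by -4.83 (adjusted p = 0.00256) and CG13054 by -3.50 (adjusted p = 0.0313). Higher in cyc0 than in per0 were Dh31 by 4.80 (adjusted p = 0.000856), DIP-gamma by 3.44 (adjusted p = 0.00352), CG32683, which was selected through its cyc0 arrays, by 3.46 (adjusted p = 0.00517), CG7985 by 3.03 (adjusted p = 0.0192), HisT by 5.41 (adjusted p = 0.0408) and Pka-R1 by 2.74 (adjusted p = 0.0499). These genes differed from wild type in cyc0 and also between the 2 mutants that share a reporter.

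For another set of called genes, per0 differed from wild type as well. Hrb87F was higher in per0 than in wild type by 5.72 (adjusted p = 9.84e-05), nej by 2.64 (adjusted p = 0.00977), Cyp4p2 by 3.98 (adjusted p = 0.00326) and eIF4B by 2.4 (adjusted p = 0.0241). Per0 lay below wild type for Con, with a difference of -3.85 (adjusted p = 0.00628), for Ilp7 (-4.82, adjusted p = 0.0107), CG18265 (-3.07, adjusted p = 0.0066), Tbh (-3.51, adjusted p = 0.033), CG9344 (-3.65, adjusted p = 0.0402) and Gs2 (-3.0, adjusted p = 0.0225). Between cyc0 and per0 none of these 10 genes passed, and the smallest adjusted p was 0.451. For them the Pdf-RFP reporter, the strain and the arrested clock cannot be told apart. Of the 10, eIF4B alone also passed between wild type at ZT15 and ZT3 (-2.3, adjusted p = 0.0333), with a mean of 9.2 at ZT3. The others did not pass between the times, which does not show equal levels. Wild-type means at ZT3 and ZT15 were 5.48 and 5.48 for Hrb87F and 6.59 and 6.53 for nej. Other called genes passed neither between cyc0 and per0 nor between per0 and wild type. Among these were dpr9 (adjusted p = 0.498 and 0.0784), Pka-C3 (0.0972 and 0.216), amon (0.411 and 0.329) and Tet (0.434 and 0.0615). Also in neither set were Cipc, Ptp99A, Liprin-gamma, ASPP, CG32204, Cf2, mRpS25, hwt, dpr8, Hsp60A, RpS21 and eIF3d1.

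The values at ZT3 in wild type gave a second reference, again with shared arrays. Wild type at ZT15 minus ZT3 was 7.92 for tim (adjusted p = 2.21e-07), 4.22 for Pura (adjusted p = 5e-04), 4.12 for Irk1 (adjusted p = 0.00304), 4.48 for Cipc (adjusted p = 0.00805) and 4.05 for sNPF (adjusted p = 0.0231). It was also 3.62 for per (adjusted p = 0.0194), 3.18 for Pdp1 (adjusted p = 0.0333) and 3.39 for CG13054 (adjusted p = 0.0401). It was -4.41 for Dh31 (adjusted p = 0.00291), -3.83 for DIP-gamma (adjusted p = 0.00241) and -2.3 for eIF4B (adjusted p = 0.0333). TkR86C (-0.29, adjusted p = 0.974), Con (-1.66, adjusted p = 0.347), Pka-C3 (-1.77, adjusted p = 0.32) and dpr9 (0.42, adjusted p = 0.97) did not pass between the times, which does not show equal levels. Nor did vri (1.32, adjusted p = 0.444).

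Heat-shock and chaperone genes held 2 lower genes among 13 tested, against 1.42% of all tested genes, with a median of -0.55. The small heat-shock gene l(2)efl read 6.63, 5.03 and 8.01 in cyc0 and 10.39, 10.58 and 10.40 in wild type. The cyc0 arrays were spread over 3 log2 units while the wild-type arrays were nearly equal. Its difference was -3.90 (SE 0.76, adjusted p = 0.00851), and a second probe set differed by -5.73 (adjusted p = 0.00118). The per0 mean of l(2)efl was 10.44, and cyc0 differed from per0 by -3.89 (adjusted p = 0.0176). The mitochondrial chaperonin gene Hsp60A differed by -2.78 (adjusted p = 0.0432, and up to 0.152 with 1 array left out).

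Of 9 tested activity-regulated and JNK-response genes none passed in limma (median -0.68, 4 at an unadjusted p under 0.05), and the Krüppel-like factor gene cbt came closest (-2.03, adjusted p = 0.0556) and passed in 6 alternative settings. None passed among 20 tested transcription factors of neuronal identity (median 0.47, 1 at an unadjusted p under 0.05), where NFAT differed by -2.37 (adjusted p = 0.111). Of 4 tested antimicrobial and immune genes none passed (median 0.51, 1 at an unadjusted p under 0.05).

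Cytoplasmic ribosomal protein genes were mostly lower in value in cyc0, although RpS21 alone of 33 tested passed. Their median difference was -1.32, 28 were negative and 17 had an unadjusted p under 0.05, against 41.9% and 19.1% of all tested genes. Averaged over the list, the cyc0 arrays stood at 8.30, 8.96 and 7.11 and the wild-type arrays at 8.92, 9.40 and 9.41. The second cyc0 array was level with the lowest wild-type array, and the third was the lowest of the 6. The per0 arrays stood at 8.85, 8.49 and 8.91, so a lower list mean was not particular to cyc0. Wild type at ZT3 stood at 9.40, 9.23 and 8.81 and the elav arrays at 7.28, 8.36 and 8.35. Without cyc0 replicate 3 the median was -0.82. RpS21 read 9.33, 10.75 and 8.73 in cyc0 and 11.18, 12.57 and 12.34 in wild type (difference -2.43, adjusted p = 0.0393, and up to 0.144 with 1 array left out).

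Mitochondrial gene lists also had negative medians. Of 61 tested mitochondrial ribosomal protein genes, 42 were negative (median -0.42), and mRpS25 was the 1 that passed. Only 6 of the 61 had an unadjusted limma p under 0.05, a smaller share than the 19.1% of all tested genes. None of 56 tested oxidative phosphorylation genes passed in limma, with a median of -0.72 and 16 at an unadjusted p under 0.05, against 19.1% of all tested genes. The complex I subunit genes ND-MNLL (-2.66, adjusted p = 0.0596) and ND-PDSW (-2.34, adjusted p = 0.0829) had the smallest p there and passed in 6 and 4 alternative settings.

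Translation initiation factors held 2 higher genes among 26 tested (median 0.33), against 1.55% of all tested genes. The gene eIF4B, whose protein assists the helicase that unwinds mRNA, read 9.29, 9.48 and 9.72 in cyc0 and 7.44, 6.75 and 6.51 in wild type (difference 2.59, SE 0.49, adjusted p = 0.00704). The groups were separate in this probe set, but 3 others of eIF4B differed by 1.19, -0.51 and -1.19 and did not pass. The subunit gene eIF3d1 differed by 2.05 (adjusted p = 0.0476, and up to 0.18 with 1 array left out).

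No gene passed in limma in the other metabolic and trafficking lists. Proteasome subunits had a median of 0.34 over 25 tested genes (4 at an unadjusted p under 0.05), with Rpn2 at 1.92 (adjusted p = 0.0524), which passed in 4 alternative settings. Glycolysis and sugar metabolism had a median of 0.57 over 14 (4 at an unadjusted p under 0.05), with Pgk, a glycolytic kinase gene, at 1.61 (adjusted p = 0.0682), which passed in 4. Vacuolar ATPase subunits stood at -0.30 over 17 (4 at an unadjusted p under 0.05), with VhaM9.7-b at -2.44 (adjusted p = 0.0548), which passed in 6 alternative settings, among them centring (0.0274) and quantile normalization (0.0454). Rab GTPases, the switches of vesicle transport, stood at -0.07 over 19 (4 at an unadjusted p under 0.05).

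**Figure D4:**
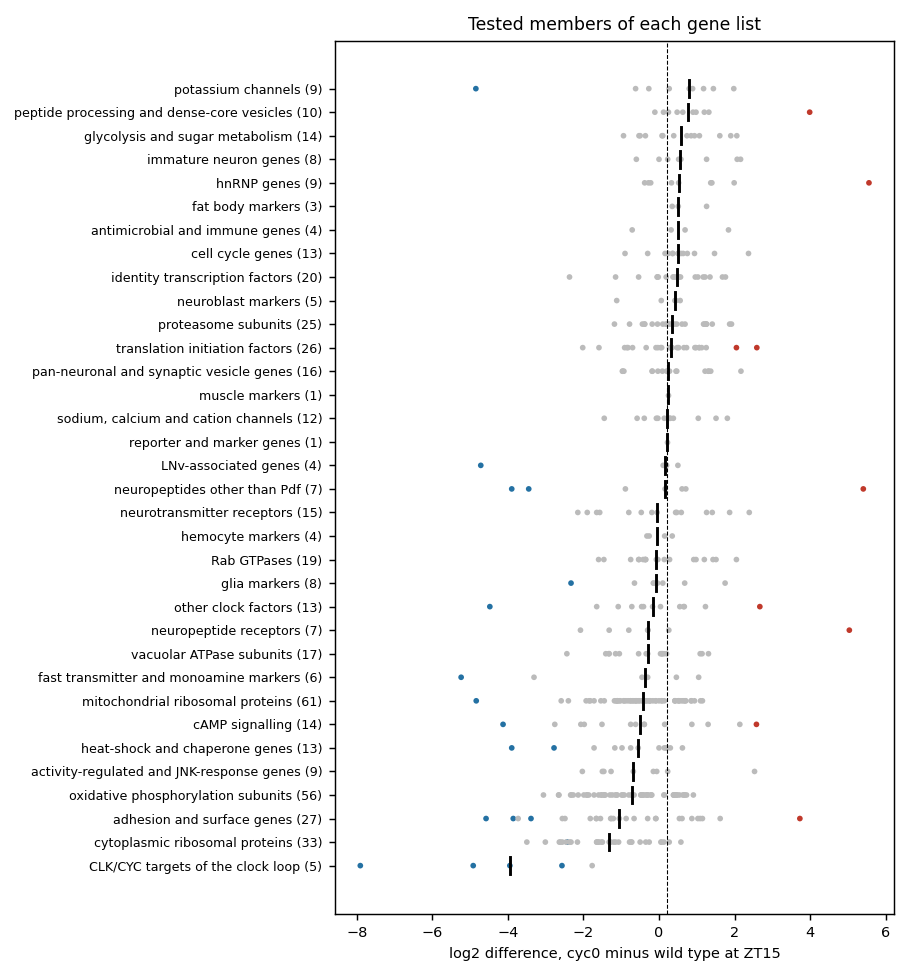
Log2 differences, cyc0 minus wild type at ZT15 (horizontal axis), of the tested genes of each list, with the number tested in brackets, red or blue points for genes called higher or lower, a black bar at the list median and a dashed line at the median of all tested genes (0.22). The CLK/CYC targets have the lowest median (-3.95), followed by the cytoplasmic ribosomal proteins (-1.32) and the adhesion and surface genes (-1.05).

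Markers of other cells that a sort could carry over ranged from below log2 4 to well above it, and 1 of those tested passed. Means in cyc0 and wild type were 9.30 and 8.04 for Imp, 9.23 and 8.64 for br and 6.96 and 7.28 for crq. Over 8 lists of such markers, 41 genes were tested, none was called higher in limma, and 1 was called lower. Over all tested genes the shares were 1.55% higher and 1.42% lower, so few calls among 41 genes are to be looked for either way. Of the 41, 29 had a positive difference and 6 of those had an unadjusted p under 0.05, against 57.5% and 12.2% of all tested genes. The one lower gene was Gs2, a glutamine synthetase gene used as a glial marker, at 4.44, 4.84 and 4.44 in cyc0 against 5.51, 8.01 and 7.18 in wild type (difference -2.33, adjusted p = 0.0448, and up to 0.192 with 1 array left out). Its part in the other differences was not tested.

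The levels of these lists are given as the range of their mean over the arrays of a group. Cyc0 replicate 3 was the highest of the 6 arrays for the glial (3.90), neuroblast (4.06), cell cycle (3.80), fat body (3.77) and muscle (3.62) lists. For the immature neuron and hemocyte lists the highest was cyc0 replicate 2, and for the photoreceptor list wild-type replicate 2. The glial list averaged 3.25 to 3.90 on the cyc0 arrays and 3.62 to 3.67 on the wild-type arrays, and the defining gene repo stood at 2.94 and 2.98. Neuroblast markers averaged 3.10 to 4.06 and 3.19 to 3.54, with 5 tested. Of these, wor (2.81 and 2.39), mira (2.78 and 2.73), ase (3.05 and 2.49) and insc (3.97 and 3.52) had means below log2 4 in both groups. The remaining tested marker, brat, was well above it (7.73 and 8.85) and did not pass. The untested marker dpn reached 4.84 on cyc0 replicate 3. Cell cycle genes averaged 3.54 to 3.80 on the cyc0 arrays and 3.05 to 3.23 on the wild-type arrays, with 11 of 13 tested genes positive and a median of 0.50.

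Within the cell cycle list, CycE, which drives entry into DNA replication, read 6.53, 4.46 and 6.95 in cyc0 and 3.97, 3.66 and 3.20 in wild type (2.37, adjusted p = 0.0589). It passed in 3 alternative settings, among them without cyc0 replicate 2 (adjusted p = 0.0104). The immature neuron genes averaged 5.54 to 6.39 and 5.07 to 5.47, with a median of 0.55 over 8 tested and the temporal-identity gene chinmo at 2.16 (adjusted p = 0.133), although another probe set of chinmo differed by -0.96. With array weights, where 812 probe sets passed, chinmo had an adjusted p of 0.014. The gene mam of the same list (2.07, adjusted p = 0.186) passed in 2 alternative settings. Hemocyte markers averaged 3.02 to 3.85 against 2.92 to 3.35 (4 tested, median -0.06) and fat body markers 3.19 to 3.77 against 2.78 to 3.29 (3 tested, median 0.51). Photoreceptor markers, none bright enough to test, averaged 2.36 to 2.77 against 2.64 to 2.84, and muscle markers 2.43 to 3.62 against 2.47 to 2.63 with 1 tested gene, TpnC73F (0.24). The part of other cells in the differences between cyc0 and wild type was not tested.

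The called genes were also counted by chromosome arm, since the label gives Pdf-RFP and cyc0 together and differences in strain could follow 1 chromosome. Called genes made up 2.61% of 806 tested genes on X, 2.88% of 833 on 2L, 2.18% of 963 on 2R, 3.23% of 928 on 3L, 3.55% of 1128 on 3R and 2.22% of 45 on chromosome 4, against 2.97% over all tested genes. Of the 100 tested genes nearest to cyc on 3L, 50 on each side, 1 was called, CG32204, and 22 had an unadjusted p under 0.05, close to the 19.1% over all tested genes. Among the lower clock genes, tim and vri lie on 2L, per on X, Pdp1 on 3L and Cipc on 3R.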

How the data were processed

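Expression was measured on Affymetrix Drosophila arrays, 5 groups of 3 arrays that the titles call biological replicates. Groups were taken from titles and genotype labels, and p-values measure the spread between these arrays. Per the labels' protocols, brains were dissociated for 2 h, and RNA of sorted cells was amplified with the NuGen WT-Ovation system. Amplification from few cells can lose dim transcripts on single arrays. The submitters' processing notes name GCRMA, and the deposited values are on a log2 scale. The version of GCRMA is not given in the sources used here, nor is any scan batch.

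After 100 controls were dropped from 18869 probe sets, the platform annotation gave a single gene symbol to 13647, several to 402 and none to 4720. Only probe sets with a single symbol are named. A gene is its probe set with the highest mean over the 15 arrays, and its other probe sets were compared. Chromosome arms came from the RefSeq gene table (Release 6). Probe sets with log2 of at least 4 on at least 3 arrays were tested, and 9 of the 89 higher and 6 of the 80 lower calls would have failed this filter without the cyc0 or the wild-type ZT15 arrays. The linear model of limma 3.58.1 (R 4.3.3) held a mean for each group over all 15 arrays, with moderated variances (prior degrees of freedom 7.46). Contrasts were tested two-sided and adjusted by Benjamini-Hochberg over the 5829 probe sets. The number of arrays limits the precision. The fit was also run on simulated data with independent noise of equal spread on every array. Such data do not show how the fit behaves when arrays differ in quality.

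Genes were named by rule. The rule took up to 15 called genes with the largest difference in each direction, a set of clock genes and markers, and of each list up to 4 called members, or up to 2 with the smallest p where none passed. Other list members are given as examples chosen after their values were seen. Of that set, w and Mef2 have no probe set with 1 symbol here. Members, lists and rule were chosen with earlier results of these data known. Lists are described by counts and medians, without a set test. Alternatives were the filter, centring, quantile normalization, another variance prior, array weights, a fit to the 6 arrays, the replicate number as a block, leaving out arrays, a minimum fold and counting each gene by 1 probe set. A planned count of CLK/CYC binding motifs in promoters was not run, since promoter sequences were not used here.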

Additional observations from a re-analysis of the deposited data

How the results depend on the processing

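In place of 169 called probe sets (89 higher, 80 lower), centring each array gave 265 (109 and 156), so that 41.1% of the calls were higher in cyc0 in place of 52.7%, and it moved the median of all probe sets from 0.17 to -0.02. Quantile normalization gave 256 (130 and 126, median 0.05), array weights 812 (473 and 339), a minimum log2 difference of 1 33 (10 and 23), and a fit to the 6 compared arrays 35 (14 and 21, 40% higher). With no filter 114 passed (51 lower). The replicate block changed the count to 156 in the fit to 15 arrays and to 1 (0 higher, 1 lower, with 850 at an unadjusted limma p under 0.05) in the fit to 6, where few degrees of freedom remain. Arrays with the same number did not deviate together (correlations 0.0195, 0.0358 and -0.0568), so the numbers were not taken as pairs. Leaving out 1 array gave 62 to 258 calls, 27 to 121 higher and 35 to 162 lower. The count was 62 without cyc0 replicate 1, 258 without cyc0 replicate 2, 110 without cyc0 replicate 3 and 95 without wild-type replicate 2, with 62, 145, 92 and 84 of the 169 among them. Without both cyc0 replicate 3 and wild-type replicate 1, 134 passed, of which 89 were among the 169. All 43 named called genes kept their direction under the 18 alternatives, except where a filter removed the gene. Of them, 27 passed with each array left out in turn, 17 lost their call at most with the replicate block in 6 arrays, and tim passed throughout. Of 37 named uncalled genes, 22 passed in at least 1 alternative, 8 of them with array weights alone.

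The sign of some uncalled differences depended on single arrays. Over the fits with 1 array left out, cry ran from -0.42 to 1.85, crq from -0.80 to 0.09, Col4a1 from -0.19 to 1.16, Lsp2 from -0.14 to 0.84 and TpnC73F from -0.11 to 0.69. Without both cyc0 replicate 3 and wild-type replicate 1, Lsp2 stood at -0.0036 and TpnC73F at -0.35, and after quantile normalization TpnC73F stood at -0.0024. None of these genes was called under any setting.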

Other observations

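Other called genes are given here as single values. They were picked after their values were seen, are members of none of the counted lists and stand for no gene group. Tango1, whose protein loads large cargo at exit sites of the endoplasmic reticulum, read 7.03, 5.36 and 6.87 in cyc0 and 4.22, 2.58 and 2.55 in wild type (difference 3.30, adjusted p = 0.00851). Golgin104 (2.88, adjusted p = 0.0159) and GM130 (2.16, adjusted p = 0.0383), which encode Golgi proteins, were higher, as were the signal recognition particle gene Srp68 (2.54, adjusted p = 0.0304) and the neurotrophic factor gene Manf (2.14, adjusted p = 0.0439). Gfat1, an enzyme gene of the hexosamine pathway, read 6.72, 6.67 and 7.71 against 3.27, 4.28 and 3.81 (3.25, adjusted p = 0.00184). UGP (2.75, adjusted p = 0.0183) and Mpi (2.52, adjusted p = 0.00552) were higher, while none of the 14 tested genes of the glycolysis and sugar metabolism list passed in limma (4 at an unadjusted p under 0.05). The glucose transporter gene Glut1 was higher by 2.85 in 1 probe set (adjusted p = 0.0136), while a second differed by 1.61 (adjusted p = 0.137). The per0 arrays averaged 3.51 for Gfat1, 8.71 for Mpi and 8.83 for Manf, against cyc0 means of 7.03, 8.83 and 8.50. The splicing factor genes Sf3b2 (2.71, adjusted p = 0.0233) and Slu7 (2.65, adjusted p = 0.00944) were higher, and nonA, an RNA-binding protein gene known from courtship song and vision, was higher in 1 probe set (3.22, adjusted p = 0.0122) but not in 2 others (1.96 and -0.21).

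Of the lower genes, the sodium/calcium exchanger gene Calx read 3.70, 2.68 and 2.81 in cyc0 and 6.17, 6.45 and 6.71 in wild type (-3.38, adjusted p = 0.00157), and the cation channel gene Trpm read 2.77, 2.69 and 2.75 against 5.76, 4.66 and 6.39 (-2.87, adjusted p = 0.00516). Of the 12 tested genes in the list of sodium, calcium and cation channels, which holds neither, none passed in limma (3 at an unadjusted p under 0.05) and 7 were positive. Wild-type LNvs at ZT3 averaged 3.95 for Calx and 3.09 for Trpm. Arc1, a gene for a capsid-forming synaptic protein, read 5.31, 5.75 and 5.72 against 8.50, 10.10 and 9.28 (-3.70, adjusted p = 0.00558), while per0 averaged 8.73. The receptor kinase genes Ret (-3.77, adjusted p = 0.0225) and Drl-2 (-2.93, adjusted p = 0.0139) and the JAK/STAT transcription factor gene Stat92E (-2.59, adjusted p = 0.0431) were lower. So were Gart (-2.13, adjusted p = 0.0487), r-l (-2.12, adjusted p = 0.0431) and Prps (-2.03, adjusted p = 0.0477), each an enzyme gene of nucleotide synthesis, and the metallothionein gene MtnA (-3.58, adjusted p = 0.0487). The monocarboxylate transporter gene Mct1 was at 2.33, 2.33 and 2.34 on the cyc0 arrays and 6.39, 4.91 and 4.56 in wild type (-2.95, adjusted p = 0.00347), and per0 averaged 2.34 as well. Gfat1, Trpm and Mct1 passed the filter on low values only through the group in which they were high.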
